A study of Homo sapiens with 6 samples.

Results

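Keratins and epithelial surface genes were compared between ovarian carcinoma cells that stably express BARD1 and control cells. The 10 genes were taken by symbol from the deposited count table, which lists 58735 genes. They are the keratin genes KRT7, KRT8, KRT18, KRT19, KRT80 and KRT81, the adhesion molecule gene EPCAM, the membrane protease gene ST14 and its inhibitor genes SPINT1 and SPINT2. The rule that takes them is a list of symbols with no measured value in it, but the list was drawn up with earlier results of these data known. The stated purpose of the series was to learn how BARD1, which pairs with BRCA1 as a ubiquitin ligase, acts on pathways of tumour angiogenesis.

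Each group had 3 libraries of poly(A)-selected RNA, all labelled 48 h. The BARD1-expressing cells carried a lentiviral BARD1 reading frame, described in the labels as GFP-BARD1, and were listed as stable cells. The control cells had the genotype control and were also listed as stable cells, with no vector named. The labels disagree on the cell line: titles and growth protocol give OVCAR8ip1, the cell line tag gives SKOV3ip1, and the tissue tag gives SKOV3ip1 tumors. Both names belong to human ovarian carcinoma lines, and the cell type tag reads high grade ovarian serous adenocarcinoma. An effect of BARD1 cannot be told apart from other differences between a transduced line and its control.

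Libraries held 12744310 to 24349158 counted reads in BARD1-expressing cells and 21819199 to 23992482 in control cells. BARD1 itself averaged 46.3 ± 2.43 CPM in BARD1-expressing cells and 17.9 ± 1.3 CPM in control cells (SD, n = 3 each), where CPM are counts per 1000000 reads after TMM scaling of the libraries. Genes with enough reads were tested with edgeR, and a gene was called at an adjusted p under 0.05. The labelled cell type was only partly borne out by 8 serous ovarian markers. PAX8 (91.4 CPM in BARD1-expressing and 143 CPM in control cells, called lower) and MSLN (191 and 183 CPM, in the same order) were present. MUC16 had no read in any library and SOX17 had 1 read in all. WT1 was scarce (0.966 and 0.393 CPM), with overlap, and its call as higher was lost in 6 of 14 alternatives. BCAM (52.9 and 37.6 CPM) and FOLR1 (3.80 and 2.56 CPM) were called higher and CRABP2 (7.68 and 11.5 CPM) lower. Of 5 tested mesothelial markers, BNC1 (80.9 and 106 CPM) and CALB2 (1.22 and 2.13 CPM) were called lower and DES higher. Summed levels of 9 immune markers were 1.42 to 2.52 CPM in BARD1-expressing and 0.920 to 1.32 CPM in control libraries, with CD3E at 0. Those of 9 endothelial markers were 11.7 to 16.8 CPM and 8.77 to 11.04 CPM in the same order, with CDH5 and TEK below 0.04 CPM in both groups. TIE1 (4.52 ± 1.48 CPM in BARD1-expressing and 1.26 ± 0.136 CPM in control cells) and KDR (0.835 ± 0.243 and 0.265 ± 0.091 CPM) were called higher among the 3 endothelial markers tested, and ERG was not called. Fibroblast and pericyte markers summed to 842 to 889 CPM in BARD1-expressing and 1016 to 1084 CPM in control libraries, nearly all from COL1A1, which was called lower, and COL1A2 and COL3A1 were below 0.05 CPM in both groups. PDGFRB (13.7 ± 0.922 CPM in BARD1-expressing and 4.81 ± 0.634 CPM in control cells), LUM (0.795 ± 0.266 and 0.186 ± 0.089 CPM) and ACTA2 (0.770 ± 0.164 and 0.303 ± 0.162 CPM) of the same list were called higher, and the median log2 fold change of its 6 tested rows was 1.17. DES, LUM, ACTA2 and KDR passed the read filter only through the BARD1-expressing libraries. Besides that of WT1, the calls of FOLR1 and ACTA2 were each lost in 6 of 14 alternatives, that of CALB2 in 5 and that of KDR in 4. Whether other cells had a part in any result below was not tested.

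Keratins are the intermediate filament proteins of epithelia and assemble only as pairs of a type I and a type II chain. KRT8 (type II) and KRT18 (type I) form the basic pair of simple, one-layered epithelia, to which KRT7 (type II) and KRT19 (type I) are added in ducts and in many carcinomas, ovarian ones included. EPCAM is a homophilic adhesion protein of epithelial cells. ST14 encodes matriptase, a serine protease of the epithelial surface, and SPINT1 and SPINT2 encode the Kunitz-type inhibitors HAI-1 and HAI-2 that hold it in check.

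Of the 10 genes, 7 had enough reads to be tested. SPINT1, KRT7 and SPINT2 were higher in BARD1-expressing cells, KRT80 was lower, and KRT8, KRT18 and EPCAM did not pass the test. The 4 calls among 7 tested genes stand beside 29.0% of all 15400 tested genes called (16.5% higher and 12.4% lower). KRT7, KRT80 and SPINT1 had separate ranges in the groups, as had 40.9% of all tested genes. Among the tested members, SPINT1 passed the read filter only through the BARD1-expressing libraries, so a difference was built into its entry. KRT81 and ST14 had too few reads and KRT19 had none. The calls of KRT7, KRT80 and SPINT1 held in each of the alternatives run, and that of SPINT2 depended on single libraries.

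**Figure D1:**
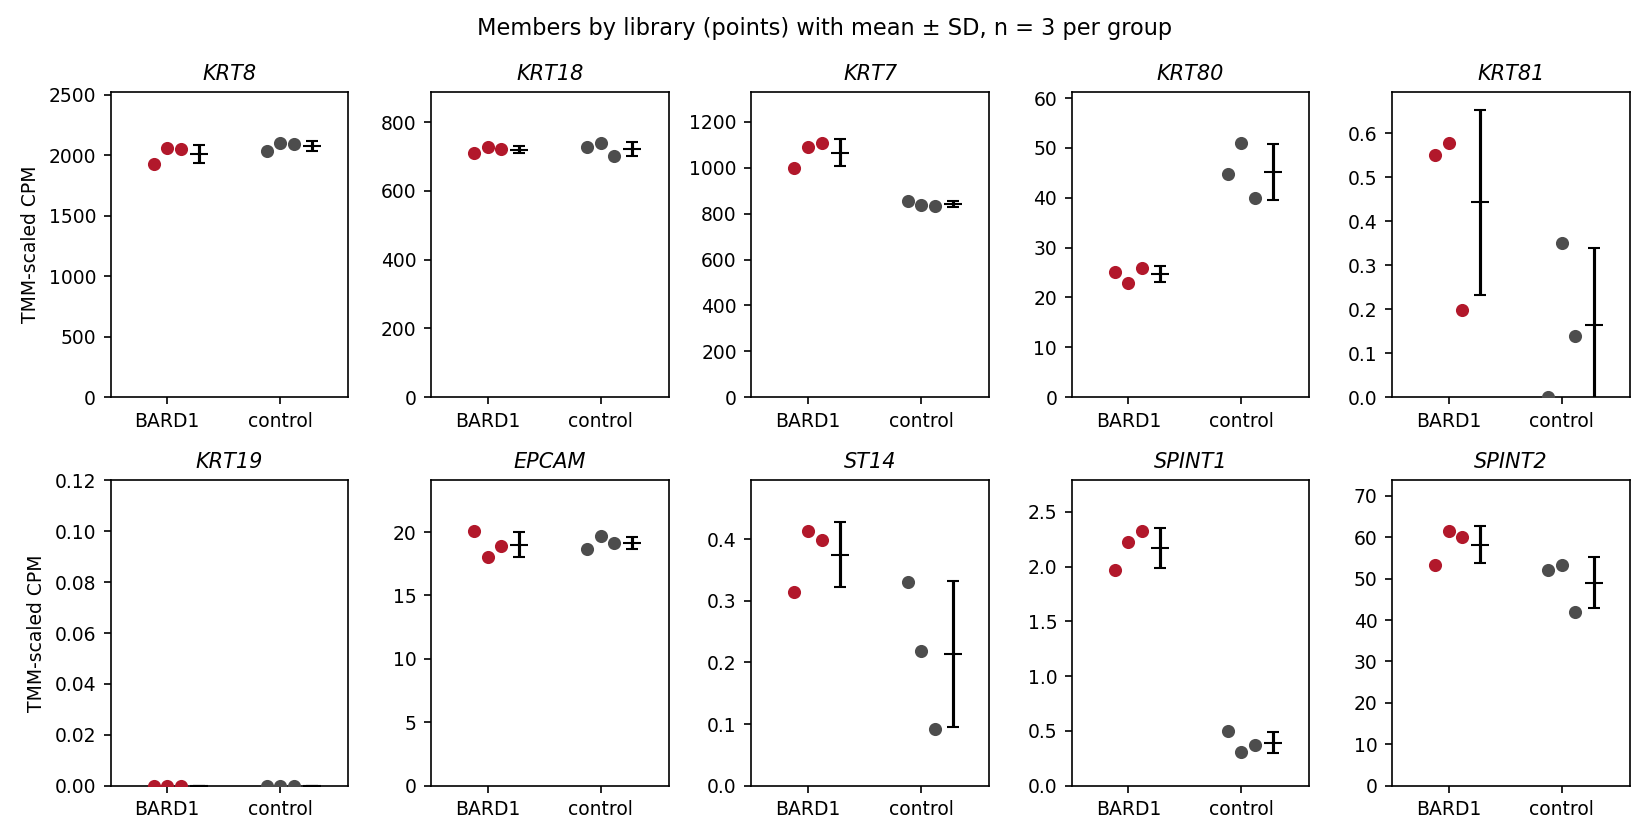
TMM-scaled CPM of the 10 genes in each library, BARD1-expressing libraries left and control libraries right, with the mean ± SD of 3 beside them (linear axes from 0, where the lower error bar of KRT81 in control libraries is cut off). KRT7 and SPINT1 lie higher and KRT80 lower in all 3 BARD1-expressing libraries, the groups overlap for the others, and KRT19 is at 0 throughout.

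The simple-epithelial pair was abundant and held its level. KRT8 (ENSG00000170421, chromosome 12, 52897187 to 52949954, minus strand, GRCh38 as in the deposited table) had 1925, 2057 and 2056 CPM in BARD1-expressing libraries 1 to 3 and 2034, 2104 and 2096 CPM in control libraries 1 to 3. It ranked 25th of 15400 tested genes by mean CPM. The groups overlapped, and the log2 fold change was -0.05 ± 0.046 (SE; 95% interval -0.14 to 0.049, edgeR adjusted p = 0.501). Its partner KRT18 (ENSG00000111057, chromosome 12, 52948871 to 52952901, plus strand) had 709, 727 and 723 CPM in BARD1-expressing libraries and 727, 739 and 699.9 CPM in control libraries. These values overlapped as well, with a log2 fold change of -0.01 ± 0.046 (95% interval -0.10 to 0.090, edgeR adjusted p = 0.95). On the fold scale the intervals ran from 0.907 to 1.03 for KRT8 and from 0.933 to 1.06 for KRT18.

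KRT8 and KRT18 lie head to head on opposite strands with their starts overlapping, and 525 exonic bases are common to both in the GENCODE release 29 annotation, 7.63% of the KRT8 exons and 16.3% of the KRT18 exons. The sources used here do not state strand use in counting, so reads from that stretch cannot be assigned with certainty. Both genes also have many processed pseudogenes. The 15 KRT8 pseudogenes with any read held 73, 127 and 101 reads in BARD1-expressing libraries and 177, 157 and 175 in control libraries, against 24474 to 49819 reads of KRT8 in a library. Adding these reads left the log2 fold change at -0.05 for KRT8, and adding the 14 KRT18 pseudogenes with reads left KRT18 at -0.01.

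KRT7, the second type II keratin of simple epithelia, was higher in BARD1-expressing cells. KRT7 (ENSG00000135480, chromosome 12, 52232520 to 52252186, plus strand) had 1001, 1089.8 and 1109 CPM in BARD1-expressing libraries and 854, 839 and 831 CPM in control libraries. All 3 BARD1-expressing libraries lay above the control libraries, which is so for 21.7% of all tested genes. The log2 fold change was 0.34 ± 0.049, a 1.27-fold level (95% interval 1.18 to 1.36, edgeR adjusted p = 6.95e-06). The two-sided exact permutation p was 0.1, and groups of 3 cannot give a smaller one. In bulk RNA, more cells with the transcript and more transcript per cell cannot be told apart. An antisense gene, KRT7-AS, shares 282 exonic bases with KRT7 (6.89% of its exons), and summing the reads of both, an alternative added after the data were seen, left the log2 fold change at 0.34.

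KRT80, a type II keratin that is found in many epithelia and lies near KRT7 in the gene cluster, changed in the opposite direction. KRT80 (ENSG00000167767, chromosome 12, 52168996 to 52192000, minus strand) had 25.1, 22.9 and 26.0 CPM in BARD1-expressing libraries and 44.7, 51.03 and 39.9 CPM in control libraries. The groups did not overlap, as for the 19.2% of tested genes whose BARD1-expressing libraries all lay lower. The log2 fold change was -0.88 ± 0.088, a level of 0.543 times control (95% interval 0.479 to 0.616, edgeR adjusted p = 3.1e-08), with 0.1 as the two-sided exact permutation p. No exon of another annotated gene overlaps the KRT80 exons.

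**Figure D2:**
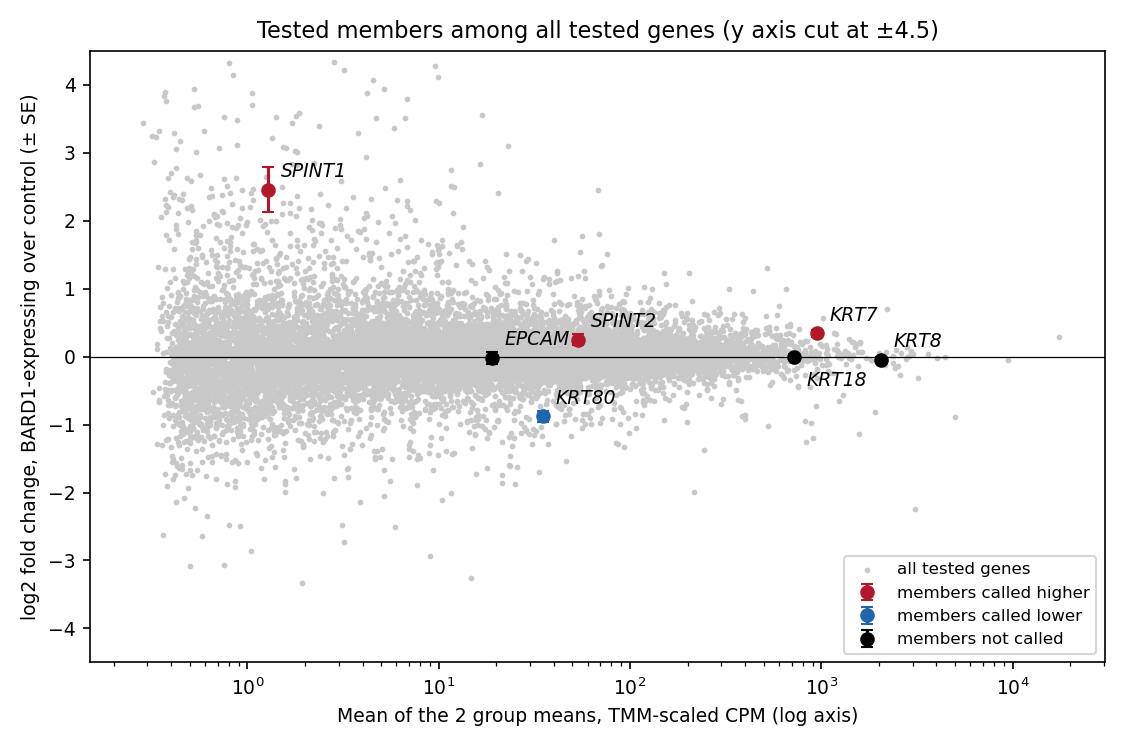
Log2 fold change (BARD1-expressing over control, ± SE) of the 7 tested members against mean expression on a log axis, over all tested genes in grey. KRT8, KRT18 and EPCAM lie at the zero line, KRT7 (0.34) and SPINT2 (0.25) slightly above it, KRT80 (-0.88) below and SPINT1 (2.46) far above.

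The remaining keratins of the set were scarcely read. KRT81 (ENSG00000205426, chromosome 12, 52285913 to 52291534, minus strand), a type II keratin of hair, had 7, 14 and 3 reads in BARD1-expressing libraries and 0, 8 and 3 in control libraries, and the groups overlapped in CPM. It was not tested, and the pooled ratio of BARD1-expressing to control reads was 2.89 (95% exact interval 1.36 to 6.52, counting error only). Without the read filter its log2 fold change was 1.44 ± 0.695 (edgeR adjusted p = 0.173). Without control 2, which held 8 of its 11 control reads, it was called higher, but it then passed the filter only through BARD1-expressing libraries. KRT81 and its paralog KRT86 share a run of 605 identical transcript bases, so short reads cannot always be assigned to one of them. KRT86 alone had 6, 11 and 6 reads in BARD1-expressing libraries and 6, 3 and 4 in control libraries. Summed with KRT83, KRT85 and KRT86, KRT81 passed the filter through its BARD1-expressing libraries and had a log2 fold change of 1.37 ± 0.436 (edgeR adjusted p = 0.0202).

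KRT19 (ENSG00000171345, chromosome 17, 41523617 to 41528308, minus strand), the type I keratin usually found beside KRT7 and KRT8, had no read in any of the 6 libraries, nor had its 5 annotated pseudogenes. A count of 0 allows up to 3 reads, which is 0.124 to 0.236 CPM in BARD1-expressing and 0.124 to 0.138 CPM in control libraries. In both groups KRT18 was therefore the type I chain with by far the most reads.

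To compare genes with each other, CPM were divided by the deposited gene length in kb. Among members, BARD1-expressing cells had the highest level for KRT8 (293 ± 11.06 CPM per kb), then KRT7 (261 ± 14.1), KRT18 (224 ± 2.97), SPINT2 (11.2 ± 0.847), EPCAM (7.54 ± 0.400) and KRT80 (5.67 ± 0.370), with SPINT1 (0.613 ± 0.052), KRT81 (0.229 ± 0.110) and ST14 (0.086 ± 0.012) far lower (SD, n = 3). No neighbours in that order overlapped in their range over libraries. In control cells the order was KRT8 (302 ± 5.50 CPM per kb), KRT18 (224 ± 6.30), KRT7 (206 ± 2.83), KRT80 (10.4 ± 1.28), SPINT2 (9.43 ± 1.2), EPCAM (7.60 ± 0.195), SPINT1 (0.110 ± 0.027), KRT81 (0.084 ± 0.091) and ST14 (0.049 ± 0.027). There KRT80 overlapped with SPINT2, SPINT1 with KRT81 and KRT81 with ST14. Per kb, KRT7 thus stood above KRT18 in BARD1-expressing cells and below it in control cells. KRT80 stood per kb below SPINT2 and EPCAM in BARD1-expressing cells and above EPCAM in control cells. In CPM not divided by length these switches were absent. KRT7 (1066 CPM in BARD1-expressing and 842 CPM in control cells) then lay above KRT18 (720 and 722 CPM) in both groups. KRT80 (24.7 and 45.2 CPM) likewise lay above EPCAM (19.0 and 19.2 CPM) in both. The deposited length counts all annotated exons of a gene, and the order with other transcript lengths was not tested.

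The makeup of the keratin pool was set by KRT8, KRT18 and KRT7 in both groups. As a share of the summed per-length level of all 55 keratin genes in the table, KRT7 made up 32.1%, 32.9% and 33.4% in BARD1-expressing libraries and 27.8%, 26.9% and 27.3% in control libraries. KRT8 made up 36.8 ± 0.140% and 40.1 ± 0.780%, and KRT18 28.2 ± 0.624% and 29.8 ± 0.518%, each with BARD1-expressing cells first (SD, n = 3). The share of KRT80 was 0.715 ± 0.057% in BARD1-expressing and 1.38 ± 0.153% in control cells. The ratio of KRT7 to KRT8 was 0.874, 0.891 and 0.906 in BARD1-expressing libraries and 0.706, 0.671 and 0.667 in control libraries, without overlap (exact two-sided permutation p = 0.1, the smallest possible). The ratio of KRT18 to KRT8 overlapped, at 0.765 ± 0.020 in BARD1-expressing and 0.743 ± 0.026 in control cells (SD, n = 3 each, exact two-sided permutation p = 0.4). Type I over type II members came to 0.415, 0.396 and 0.390 in BARD1-expressing libraries and to 0.439, 0.440 and 0.421 in control libraries, a log2 difference of -0.11 (exact two-sided permutation p = 0.1). On raw counts not divided by length the difference was -0.07. The sizes of these shares and ratios rest on the deposited lengths, which count all annotated exons, and other lengths were not tested. Not divided by length, KRT8 averaged 2013 CPM in BARD1-expressing and 2078 CPM in control cells. KRT7 averaged 1066 and 842 CPM and KRT18 720 and 722 CPM, in the same order. Lengths scale a ratio of 2 single genes by the same factor in every library.

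**Figure D3:**
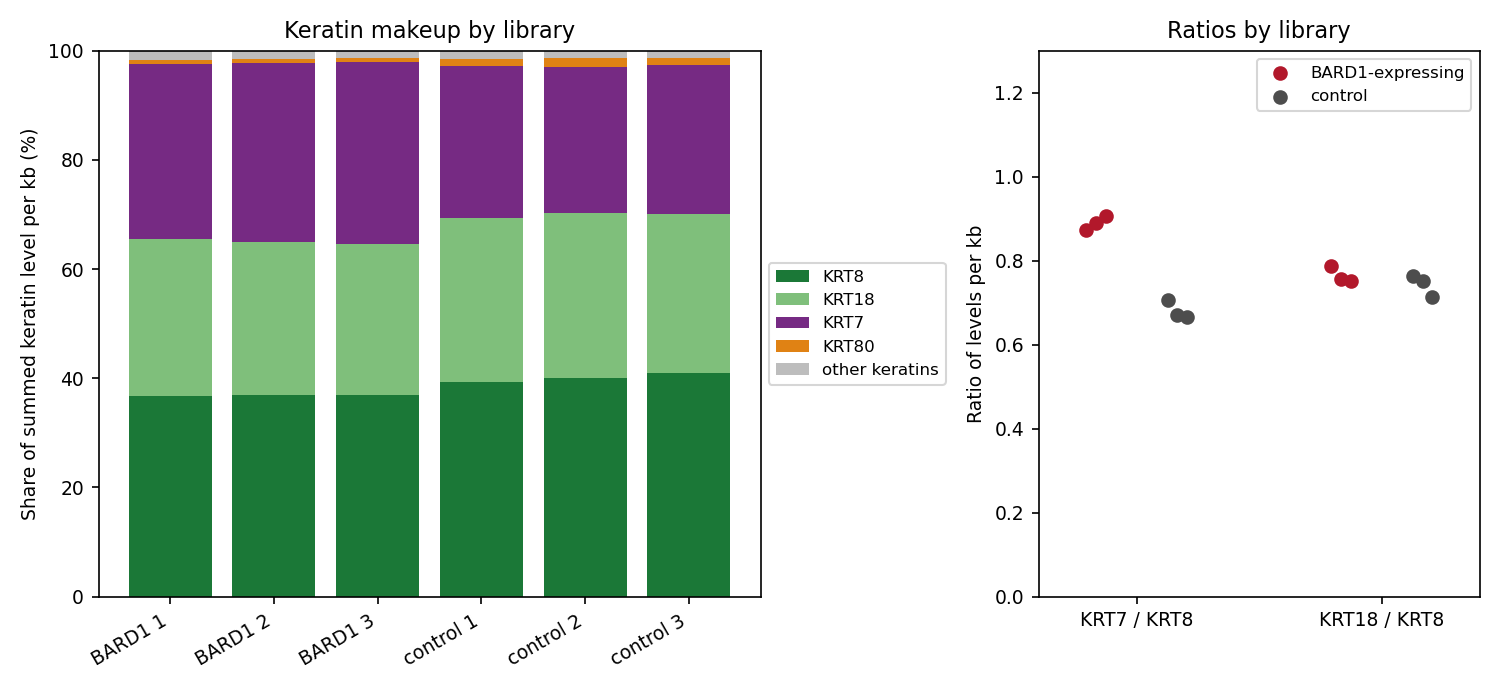
Left, share of the summed keratin level per kb taken by each keratin in each library, BARD1-expressing libraries first (KRT81 is too small to draw and KRT19 is at 0). Right, ratios of levels per kb by library; KRT7 to KRT8 is 0.874 to 0.906 in BARD1-expressing and 0.667 to 0.706 in control libraries, and KRT18 to KRT8 overlaps.

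All keratin members other than KRT19 lie in the type II keratin cluster of chromosome 12, where KRT18 is the lone type I gene, and they span 783.9 kb. The 4 tested protein-coding genes of that span are KRT80, KRT7, KRT8 and KRT18. Neighbouring members therefore differed in direction, with KRT80 lower and KRT7 higher while KRT8 and KRT18 were not called. In the 1000 kb to either side, 2 of 11 tested protein-coding genes were higher and 1 was lower on the KRT80 side (median log2 fold change 0.06), and 4 of 22 were higher and 4 lower on the KRT18 side (median -0.07), against a median of -0.003 for all tested genes. The growth factor binding protein gene IGFBP6 (-1.05 ± 0.125) and the homeobox gene HOXC13 (0.97 ± 0.196) lay on the KRT18 side and had the lowest and highest log2 fold changes there.

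**Figure D4:**
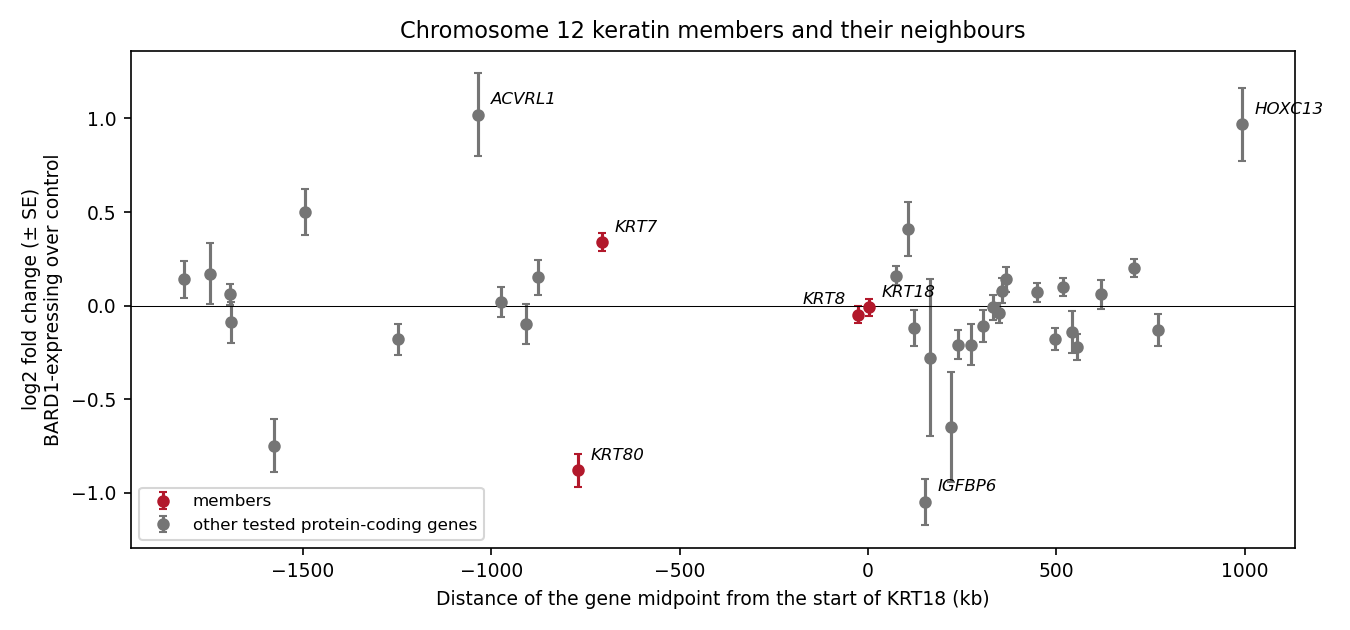
Log2 fold change (± SE) of tested protein-coding genes by distance of the gene midpoint from the start of KRT18 in kb, with members in red. KRT80 (-0.88) and KRT7 (0.34) are neighbours with opposite signs, and genes on both sides scatter around 0.

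Of the surface genes, EPCAM (ENSG00000119888, chromosome 2, 47345158 to 47387601, plus strand) held its level. It had 20.1, 18.04 and 18.9 CPM in BARD1-expressing libraries and 18.7, 19.7 and 19.1 CPM in control libraries, with overlap and no consistent order. The log2 fold change was -0.02 ± 0.090 (95% interval -0.20 to 0.169, edgeR adjusted p = 0.917).

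SPINT1, the gene of the matriptase inhibitor HAI-1, had the largest log2 fold change of the tested members and was a low-level gene in both groups. SPINT1 (ENSG00000166145, chromosome 15, 40844018 to 40858207, plus strand) had 25, 54 and 35 reads in BARD1-expressing libraries and 12, 7 and 8 in control libraries. This is 1.97, 2.23 and 2.32 CPM in BARD1-expressing cells and 0.495, 0.307 and 0.369 CPM in control cells, without overlap. The log2 fold change was 2.46 ± 0.337, a 5.49-fold level (95% interval 3.39 to 8.91, edgeR adjusted p = 4.31e-06), and it ranked 115th of 15400 tested genes by absolute log2 fold change. SPINT1 passed the read filter only through the BARD1-expressing libraries, so a difference was built into its entry. Its p-value, interval and rank therefore describe these libraries and are not independent support. From pooled reads, 114 against 27, the ratio was 5.58 (95% exact interval 3.64 to 8.84, counting error only). It was 2.31 to 2.67 on the log2 scale over the 14 alternatives.

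The upstream SPINT1 promoter is shown because SPINT1 had the largest log2 fold change of the tested members, a choice made from these same values. RefSeq (GRCh38.p14) gives 2 start sites, and each promoter window runs from 250 bases before to 50 bases after one of them, on the plus strand, at chr15:40843798-40844097 and chr15:40844227-40844526. Capitals mark matches, on either strand, to 5 motifs: the GC box (GGGCGG), the TATA box (TATAAA), the E-box bound by ZEB and SNAI repressors (CAGGTG), the AP-1 site (TGANTCA) and the core of ETS sites (CCGGAA).
SPINT1: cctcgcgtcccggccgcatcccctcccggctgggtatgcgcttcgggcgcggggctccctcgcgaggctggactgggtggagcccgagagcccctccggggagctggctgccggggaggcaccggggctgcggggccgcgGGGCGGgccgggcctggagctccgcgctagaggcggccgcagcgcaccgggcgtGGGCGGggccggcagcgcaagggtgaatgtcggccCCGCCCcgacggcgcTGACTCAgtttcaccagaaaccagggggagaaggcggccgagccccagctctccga
The upstream window is 77.7% G and C and holds 3 GC boxes and 1 AP-1 site, which begins 6 bases before the start. The downstream window is 69.7% G and C and holds 1 E-box 26 bases before its start. Of all 35116 promoter windows in the table, 45.0% hold a GC box, 7.71% an AP-1 site and 20.6% this E-box. Such a match describes letters and not a bound factor. Of the 10 genes, KRT8 and SPINT1 had an entry in that table.

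SPINT2, the gene of HAI-2, was higher by a small margin. SPINT2 (ENSG00000167642, chromosome 19, 38244035 to 38292614, plus strand) had 53.2, 61.4 and 59.99 CPM in BARD1-expressing libraries and 52.0, 53.2 and 41.9 CPM in control libraries. Control 3 lay lowest, and the lowest BARD1-expressing library (53.17 CPM) was level with control 2 (53.22 CPM), so the groups overlapped. The log2 fold change was 0.25 ± 0.083, a 1.19-fold level (95% interval 1.06 to 1.34, edgeR adjusted p = 0.0267), and the two-sided exact permutation p was 0.2. Without control 3 it was 0.15 (adjusted p = 0.168 in the same edgeR test), without BARD1-expressing 2 it was 0.20 (0.133) and without BARD1-expressing 3 it was 0.23 (0.115). The ratio of SPINT1 to SPINT2 levels per kb was 0.055 ± 0.002 in BARD1-expressing and 0.012 ± 0.003 in control cells (SD, n = 3 each, exact two-sided permutation p = 0.1). That p is not independent support, since SPINT1 passed the read filter only through the BARD1-expressing libraries. In control libraries the ratio rests on 12, 7 and 8 SPINT1 reads. SPINT2 remained the more abundant inhibitor transcript in every library.

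The protease itself was near the detection floor. ST14 (ENSG00000149418, chromosome 11, 130159562 to 130210376, plus strand) had 4, 10 and 6 reads in BARD1-expressing libraries and 8, 5 and 2 in control libraries. This is 0.315, 0.413 and 0.398 CPM in BARD1-expressing cells and 0.330, 0.219 and 0.092 CPM in control cells, with overlap. The pooled ratio was 1.76 (95% exact interval 0.858 to 3.70, counting error only), and the unfiltered edgeR log2 fold change was 0.78 ± 0.680 (adjusted p = 0.536). A difference in ST14 was not detectable at this depth. The ratio of both inhibitors to ST14 per kb was 149, 131 and 133 in BARD1-expressing libraries and 134, 205 and 385 in control libraries, where it rests on 8, 5 and 2 ST14 reads (exact two-sided permutation p = 0.2). Inhibitor transcripts were far more abundant than those of the protease in each library.

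Genes that work with the members were read from 8 lists, whose 52 called genes (33 higher and 19 lower) are described by counts and medians. The counts of each list stand beside 29.0% of all 15400 tested genes called (16.5% higher and 12.4% lower). The lists were drawn up with earlier results of these data known, so a larger share in them is not a result about the lists. Beyond the members, 49 further keratin genes are in the table, and 30 of them had no read. Only KRT10, KRT17 and KRT34 could be tested. KRT17, a keratin of basal and stressed epithelium, was lower (0.857 ± 0.144 CPM in BARD1-expressing and 1.79 ± 0.224 CPM in control cells; log2 fold change -1.05 ± 0.298, edgeR adjusted p = 0.00968). KRT10, a keratin of the upper epidermis, was higher (20.8 ± 1.78 and 17.02 ± 1.03 CPM in the same order, SD, n = 3 each), a call lost in 5 of 14 alternatives. KRT34 was not called (-0.36 ± 0.220, adjusted p = 0.242).

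Of 11 tested genes for other intermediate filaments, 3 were higher and 2 lower (median log2 fold change 0.14). The lamin gene LMNA was higher, at 621 ± 37.7 CPM in BARD1-expressing and 411 ± 15.7 CPM in control cells. The muscle filament gene DES was higher as well, from a low level, at 3.33 ± 0.593 and 0.277 ± 0.053 CPM, whereas the neurofilament gene NEFH (298 ± 4.74 and 420 ± 7.53 CPM) and the related INA (64.7 ± 1.71 and 92.4 ± 5.48 CPM) were lower, each with BARD1-expressing cells first (SD, n = 3 each). DES passed the read filter only through the BARD1-expressing libraries. VIM, the mesenchymal filament gene vimentin, was not called, at 944 ± 12.8 CPM in BARD1-expressing and 933 ± 32.6 CPM in control cells (log2 fold change 0.02 ± 0.046), so both groups carried vimentin beside KRT8, KRT18 and KRT7 transcripts.

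Desmosomes and plakins anchor keratin filaments at the membrane, and their genes changed in both directions: 4 of 18 tested were higher and 5 lower (median 0.08). The desmosomal cadherin DSG2 (-0.62 ± 0.054) and its relative DSC2 (-0.36 ± 0.081), both on chromosome 18, the plakophilin PKP2 (-0.54 ± 0.085) and the keratin-binding plakin DSP (-0.27 ± 0.047) were lower. DSC3, also on chromosome 18, was not called (0.15 ± 0.067). Plakoglobin (JUP, 0.50 ± 0.065), PKP1 (1.14 ± 0.217), DST (0.28 ± 0.048) and the hemidesmosomal integrin ITGB4 (2.07 ± 0.162) were higher. DSP was the most abundant of those called, at 748 ± 10.8 CPM in BARD1-expressing and 904 ± 37.6 CPM in control cells (SD, n = 3 each). PLEC, the cytolinker plectin, was not called (0.00 ± 0.088).

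In the matriptase network 4 of 11 tested genes were higher and 2 lower (median 0.38). PLAU, the urokinase gene whose product matriptase can activate, had a log2 fold change of 1.18 ± 0.068, and MST1R, the receptor of the HGF-like ligand MST1, one of 0.92 ± 0.129. The HGF receptor gene MET was lower (-0.23 ± 0.061). PRSS8, the gene of the surface protease prostasin (ENSG00000052344, chromosome 16), was picked after its values were seen: it had 9, 10 and 8 reads in BARD1-expressing libraries and none in control libraries, at least 11.8-fold higher from pooled counts with 3 counts set for the control group. That bound was 7.68 to 13.9 with 1 library left out, and PRSS8 did not pass the read filter. TMPRSS2 and HPN, genes of other surface proteases, were below 0.05 CPM in both groups.

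Among partners and proteases of EPCAM, 7 of 17 tested genes were higher and 1 lower (median 0.13). CLDN7, a claudin that binds EPCAM, was higher at a low level (0.733 ± 0.162 CPM in BARD1-expressing and 0.142 ± 0.101 CPM in control cells) and passed the read filter only through the BARD1-expressing libraries, and the tetraspanin CD9 (0.27 ± 0.053) and the hyaluronan receptor CD44 (0.32 ± 0.049) were higher too. Of other epithelial surface genes 6 of 16 tested were higher and 3 lower (median 0.34). The receptor gene ERBB3 (-0.77 ± 0.064) and P-cadherin (CDH3, -1.0 ± 0.166) were lower, and the adhesion receptor CXADR (1.62 ± 0.142), the tricellular junction gene LSR (0.67 ± 0.077) and CLDN3 were higher, CLDN3 having no control read and so entering the test only through the BARD1-expressing libraries. CDH1, the gene of the epithelial cadherin, was close to 1 CPM in both groups (0.999 ± 0.059 in BARD1-expressing and 1.08 ± 0.183 in control cells) and was not called.

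Regulators of epithelial genes were higher in 5 and lower in 1 of 18 tested cases (median 0.13). Of the 28 listed, 4 had no read in any library (GRHL2, EHF, TP63 and TFAP2B). ELF3 and OVOL1 each averaged 0.014 CPM in BARD1-expressing and 0 CPM in control cells. The AP-1 subunit genes FOSL2 (180 ± 4.81 CPM in BARD1-expressing and 117 ± 2.72 CPM in control cells) and JUNB (23.6 ± 2.92 and 15.01 ± 1.24 CPM) were higher. AP-1 genes did not all go that way: JUN, more abundant than both, was the 1 called lower (250 ± 11.6 and 275 ± 2.33 CPM). FOSL1 (398 ± 18.9 and 355 ± 26.6 CPM) was called higher and FOS was not called. The calls of JUN and FOSL1 were lost in 6 and 5 of 14 alternatives. The splicing factor genes ESRP2 (0.62 ± 0.119) and ESRP1 (0.44 ± 0.146) were higher too, the call of ESRP1 being lost in 4 of 14 alternatives. KLF5, an epithelial zinc finger factor, was not called (127 CPM in each group). Of 9 genes for repressors of the epithelial state, 3 were higher and 4 lower (median -0.12). TCF4 (-1.44 ± 0.123, chromosome 18), TWIST2 (-0.55 ± 0.105), SNAI2 (-0.61 ± 0.119) and TCF3 (-0.15 ± 0.052) were lower. SNAI1 (0.60 ± 0.137), TWIST1 (0.38 ± 0.113) and SNAI3 (0.81 ± 0.304) were higher. The calls of TCF3, TWIST1 and SNAI3 were lost in 5, 2 and 11 of 14 alternatives. The genes for the repressors ZEB1 and ZEB2 were not called.

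**Figure D5:**
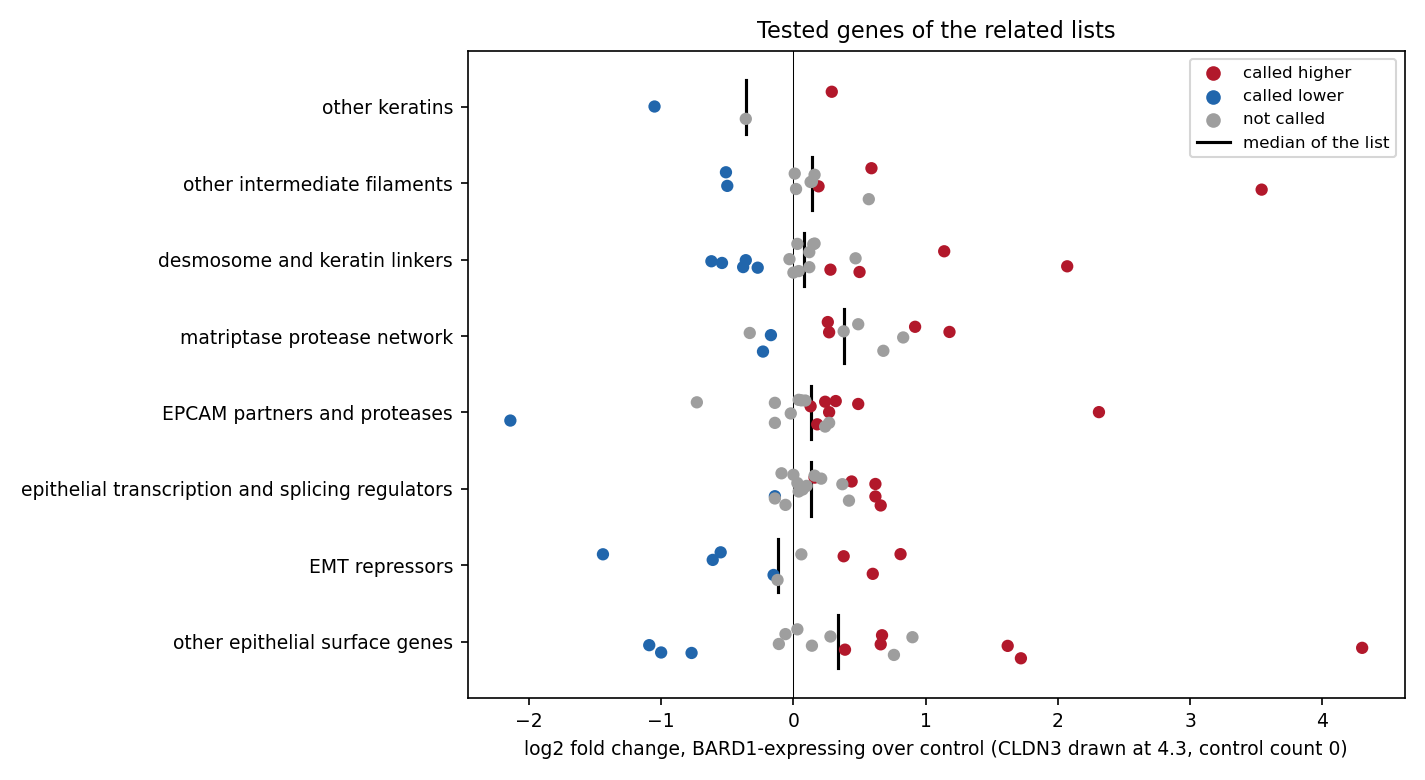
Log2 fold change of each tested gene in the 8 related lists, red for called higher, blue for called lower and grey for not called, with the list median as a black bar. Each list holds genes called in both directions, and medians lie between -0.36 (other keratins, 3 genes) and 0.38 (matriptase protease network).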

How the data were processed

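The authors deposited raw read counts per gene for 6 libraries, whole numbers with a different total in each. The build was GRCh38 (hg38) and the tools named were featureCounts 1.5.0-p3, DESeq2 1.20.0 and HISAT2 2.0.5, per the submitters' processing notes, which give no role or option. Strand use in counting is not stated, and the extract protocol in the labels allows for stranded and unstranded libraries. The deposited table also gives each gene's length in bases. Its gene spans matched GENCODE release 29 for all 10 members, whose exons gave the overlaps. Columns were assigned through the descriptions in the labels.

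The test on counts was that of edgeR 4.0.16 in R 4.3.3: filterByExpr (minimum count 10) left 15400 of 58735 genes, libraries were scaled by TMM, and a robust quasi-likelihood model of group alone was fitted, with Benjamini-Hochberg adjustment over all tested genes. Intervals of fold changes use the same fit. Exact permutation tests used log2 values, with 0.5 reads of pseudocount for CPM (scipy 1.17.1). Replicates are called biological in the labels without further detail, so the spread behind each p-value is that among these libraries and may be technical. No pair of libraries of a group was identical (chi-square per degree of freedom 3.41 to 8.11). The pipeline was tested on simulated data.

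Members and lists were chosen with earlier results of these data known. Named were all members, BARD1, up to 4 genes with the smallest p of each list and marker genes; genes beyond these (such as VIM, KLF5, CDH1 and PRSS8) were named after their values were seen. Alternatives were DESeq2 1.42.0, limma-voom (limma 3.58.1), other scalings, no filter, no robust estimation, a replicate block, summed paralogs or pseudogenes, and each library left out. One list member and one pair of sequences are not reported here.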

Additional observations from a re-analysis of the deposited data

How the results depend on the processing

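KRT7 (log2 fold change 0.31 to 0.38), KRT80 (-0.96 to -0.79) and SPINT1 (2.31 to 2.67) kept direction and call in all alternatives run for them, and KRT8, KRT18 and EPCAM stayed uncalled. The kept call of SPINT1 is not independent support, since that gene passed the read filter only through the BARD1-expressing libraries. SPINT2 kept its call in 11 of 14 alternatives and was 0.15 to 0.31 with 1 library left out. The number of members called was 4 in each alternative, except 3 without BARD1-expressing 2, BARD1-expressing 3 or control 3 (SPINT2 lost) and 5 without control 2 (KRT81 gained). Over all tested genes 3317 to 4755 were called, and 41 to 52 of the listed genes. The type I to type II keratin difference was -0.07 (-0.071) on raw counts instead of -0.11 (-0.114) per kb. KRT19, KRT81 and ST14 gave no main value. Libraries with the same replicate number did not deviate together (correlations of -0.112, -0.032 and -0.009), and no library correlated best with its own number in the other group. With the replicate number as a block, 3990 genes were called instead of 4460, and the same 4 members (SPINT2 log2 fold change 0.25, adjusted p = 0.0231). Depth limits ST14 and KRT81 most, with 20 and 24 reads in all BARD1-expressing and 15 and 11 in all control libraries.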

Other observations

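Genes whose pattern over the 6 libraries was most like that of a member were found by Pearson's r of log2 CPM among 10385 protein-coding genes averaging 5 CPM or more. The values rest on 6 libraries and a search over many genes, and are given as a description. DDAH2 (r = 0.998) and PIMREG (0.997) were most like KRT7, CHERP (0.998) and CPS1 (0.996) most like KRT80, and ABHD8 (0.992) and TMEM250 (0.991) most like SPINT2. For the members that were not called, MAST4 (0.986) and PCGF6 (0.985) were most like KRT8, TGM1 (0.994) and ZNF436 (0.992) most like KRT18, and RAB3GAP2 (0.989) and RANBP6 (0.989) most like EPCAM.

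The KRT8 pseudogene with the most reads, KRT8P3, was called lower in BARD1-expressing cells (2.36 CPM, against 3.78 CPM in control cells; log2 fold change -0.70 ± 0.203, edgeR adjusted p = 0.0114), while KRT8 was not. KRT8P3 shares runs of up to 129 identical bases with KRT8 transcripts, so its reads cannot all be assigned with certainty. The next, KRT8P12, was not called (log2 fold change 0.05 ± 0.228, adjusted p = 0.891 in the same edgeR test), with a longest shared run of 53 bases.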
